A study of Homo sapiens with 9 samples.

Results

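The metallothioneins and zinc response genes examined here were MT1E, MT1F, MT1G, MT1H, MT1M, MT1X and MT2A, the regulator MTF1, and the zinc transporters SLC30A1 and SLC39A10. All probe sets annotated to these 10 genes were taken, whatever their signal, which gave 18 of the 54613 probe sets that are not array controls. A probe set is a group of short oligonucleotides whose signals are summarised as 1 value. Of the 18, 11 belonged to metallothioneins and 7 to the regulator and the transporters, and 0 carried more than 1 gene symbol. Signal was read on 9 Affymetrix arrays from total RNA of PANC-1 cells, a ductal-type human pancreatic cancer line in long use. There were 3 arrays after 6 h in 5 uM BRD7552, a small molecule, 3 after 72 h in the same dose, and 3 in the solvent DMSO, whose exposure time the labels leave out. Both exposures are compared with the same 3 DMSO arrays. No DMSO arrays are labelled by time, so exposure to BRD7552 and time in culture cannot be told apart. No genetic change or further agent is given for any group, and all 9 samples come from 1 cell line. Whether the replicates of a group grew as separate cultures is not stated, so p-values here measure only how far these samples differ, which may be technical.

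Metallothioneins are small, cysteine-rich proteins that bind zinc, copper and cadmium in the cytoplasm and nucleus and buffer the free metal. MTF1 is the zinc-sensing transcription factor that binds metal response elements and turns on metallothionein genes and SLC30A1 when zinc is high. SLC30A1 exports zinc across the plasma membrane, whereas SLC39A10 brings zinc into the cytosol, and its expression is known to be held down by MTF1 when zinc is high.

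The 7 metallothionein genes lie within chr16:56608584-56684196 (GRCh38.p14, RefSeq), all annotated as protein-coding. MTF1 and SLC30A1 lie on chromosome 1 (chr1:37809574-37859592 and chr1:211571568-211579161) and SLC39A10 on chromosome 2 (chr2:195613029-195737700). RefSeq promoter windows of this build matched 6 of the 10 genes, with 7 windows. The 250 bases before the start site were searched on both strands for the metal response element core, spelled TGCACNC or TGCGCNC. The windows below show how densely this core is packed ahead of MT2A, MT1X and MT1H, and that of SLC30A1 is given for contrast. Each is written 5' to 3' on the gene's strand, with capitals marking core matches on either strand.

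MT2A, chr16:56608334-56608583, plus strand: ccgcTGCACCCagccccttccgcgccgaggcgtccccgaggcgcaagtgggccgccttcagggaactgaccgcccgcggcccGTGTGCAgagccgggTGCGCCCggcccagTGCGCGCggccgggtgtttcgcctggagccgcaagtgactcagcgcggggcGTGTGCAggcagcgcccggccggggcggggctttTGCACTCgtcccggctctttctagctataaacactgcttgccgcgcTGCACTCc

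MT1X, chr16:56682220-56682469, plus strand: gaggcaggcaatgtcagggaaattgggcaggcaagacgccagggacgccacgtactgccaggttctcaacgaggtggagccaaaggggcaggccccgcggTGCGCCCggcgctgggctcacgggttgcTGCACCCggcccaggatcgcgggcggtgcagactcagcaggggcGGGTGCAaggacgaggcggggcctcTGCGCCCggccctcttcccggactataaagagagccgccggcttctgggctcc

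MT1H, chr16:56669564-56669813, plus strand: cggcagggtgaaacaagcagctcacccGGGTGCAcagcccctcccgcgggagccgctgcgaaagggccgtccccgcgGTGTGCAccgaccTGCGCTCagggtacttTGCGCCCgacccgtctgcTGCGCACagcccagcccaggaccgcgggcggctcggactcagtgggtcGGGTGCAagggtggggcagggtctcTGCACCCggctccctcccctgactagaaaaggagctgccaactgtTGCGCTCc

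SLC30A1, chr1:211579162-211579411, minus strand: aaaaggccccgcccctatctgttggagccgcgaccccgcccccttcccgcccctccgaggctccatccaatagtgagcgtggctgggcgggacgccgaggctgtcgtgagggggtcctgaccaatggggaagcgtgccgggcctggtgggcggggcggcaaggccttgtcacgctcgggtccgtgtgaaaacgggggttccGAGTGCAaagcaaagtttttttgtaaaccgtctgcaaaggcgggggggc

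The MT1H window held 8 matches, that of MT2A 7 and that of MT1X 4, with 0 overlapping pairs in each. The SLC30A1 window held 1 match, on the opposite strand. The windows of MTF1 and SLC39A10 held 0, which says only that these letters are not in these bases. Both SLC39A10 windows, chr2:195656708-195656957 and chr2:195656976-195657225, lie within the span given for the gene. The bases before the start of that span were not searched. Among 35116 promoter windows of the same length, 24.8% held at least 1 match, 0.37% at least 4 and 0.0313% at least 7. A match is a description of the sequence, and binding was not measured. MT1E, MT1F, MT1G and MT1M are the metallothionein genes without a window here.

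The main pattern was a modest decrease of metallothionein signal after 72 h. At 72 h, 8 of the 10 metallothionein probe sets that passed the filter on low signal were called lower than DMSO. None was called higher, and all 10 differences were negative. Over all tested probe sets, 14.2% were called lower and 5.57% higher. The 8 were annotated to MT1E, MT1F, MT1G, MT1H, MT1X and MT2A, with log2 differences from -0.38 to -0.16. All 8 are marked by the platform as also matching other transcripts, so they are not separate results for each gene. SLC39A10 was called lower by 0.42, as was 1 of 2 tested SLC30A1 probe sets by 0.18. None of the 3 MTF1 probe sets passed the test. At 6 h, 0 of the 16 tested probe sets of the 10 genes were called.

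"Called" here means a Benjamini-Hochberg adjusted p below 0.05 from limma, a linear model fitted over all 27307 probe sets with a mean signal of at least 17.8 linear units. At 72 h, 14.2% of all tested probe sets were called lower and 5.57% higher. Against this, 10 of the 16 tested probe sets of the 10 genes were called lower and 0 higher. Their median log2 difference was -0.27, beside -0.07 over all tested probe sets, of which 64.2% were negative. The 72 h and DMSO arrays did not overlap for 12 of the 16, each lower at 72 h, beside 32.1% of all tested probe sets. Neither count is one of independent readings, because most metallothionein probe sets are marked as matching other transcripts too. The share of 72 h calls that were lower over the whole array was 71.9% as deposited, 64.8% after centring each array on its median, 55.6% after quantile normalization and 54.3% after cyclic loess. The median of the 9 metallothionein _x_at probe sets was -0.30, -0.27, -0.29 and -0.32 under the same settings in that order.

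**Figure D1:**
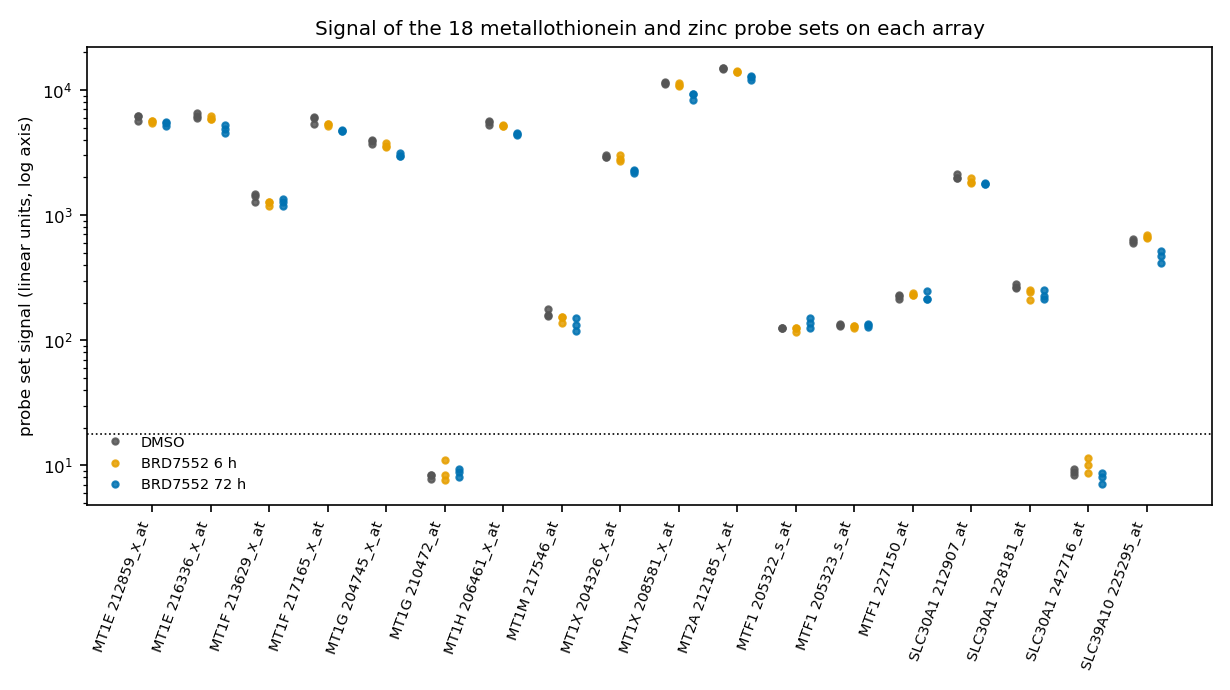
Signal of each of the 18 probe sets on each array (linear units, log axis), with 3 points per group for DMSO, 6 h and 72 h, and the dotted line at the filter of 17.8. The 72 h points lie below the DMSO points for most metallothionein _x_at probe sets, and 1 probe set each of MT1G and SLC30A1 lies under the line.

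Values over the whole array are set beside these. Median signal was 16.2 to 18.8 per array. For 72 h replicates 2 and 3 the 75th percentile lay at 97.2 and 99.5, whereas 7 arrays had 112 to 119. The median SD within a group was 0.16 log2 units at 72 h, beside 0.08 in DMSO and 0.09 at 6 h. The ratio of 3' to 5' signal of ACTB was 2.07 to 2.21 at 72 h, 1.91 to 2.01 in DMSO and 1.74 to 2.05 at 6 h. All 5 ductal epithelial markers passed the filter, and their summed signal was 25790 to 27599 at 72 h and 32530 to 33280 in DMSO. None of 4 endocrine and none of 3 leukocyte markers passed it. Of 3 acinar and of 3 endothelial markers, 1 each passed. Summed acinar signal was 31.4 to 40.0 at 72 h and 38.9 to 42.9 in DMSO. The endothelial sum was 41.3 to 56.0 at 72 h and 37.7 to 47.1 in DMSO. Summed signal of 4 fibroblast markers, 2 of which passed, was 518 to 644 at 72 h and 629 to 714 in DMSO. The part of these shifts in the results was not tested. With bulk RNA, fewer cells with a transcript and less of it per cell cannot be told apart.

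MT2A, the most widely expressed metallothionein of human tissues, was read by 1 probe set, 212185_x_at. Its signal was 15029, 14647 and 15042 on the DMSO arrays, 14297, 14057 and 13899 at 6 h, and 13042, 12593 and 12111 at 72 h. All 3 groups were separate, with DMSO highest and 72 h lowest. The decrease at 72 h was 15.6% (log2 -0.25, SE 0.031, limma adjusted p = 8.25e-05). With each array centred on its median the log2 difference was -0.21 and no longer called (adjusted p = 0.065), whereas the other alternatives gave adjusted p from 4.12e-05 to 0.023. The highest signal of any probe set on the arrays was 25052.

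MT1X, a metallothionein strongly induced by metals in many cell types, was read by both of its probe sets as lower. The signal of 208581_x_at was 11351, 11081 and 11625 in DMSO, 11414, 10919 and 10674 at 6 h, and 9221, 9263 and 8307 at 72 h. The signal of 204326_x_at was 2914, 2891 and 3005 in DMSO, 3035, 2783 and 2690 at 6 h, and 2189, 2297 and 2262 at 72 h. On both, DMSO and 6 h arrays overlapped, and the 72 h arrays lay below all others. The decreases were 21.4% (log2 -0.35, SE 0.042, limma adjusted p = 5.85e-05) and 23.4% (log2 -0.38, SE 0.045, adjusted p = 4.76e-05). The accession given for 204326_x_at belongs in RefSeq to MT1L, a metallothionein pseudogene, so which transcript it reads is uncertain.

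MT1E, MT1F, MT1G, MT1H and MT1M are further copies of the same gene family in the chromosome 16 cluster. MT1H 206461_x_at gave 5647, 5253 and 5514 in DMSO, 5251, 5138 and 5195 at 6 h, and 4431, 4496 and 4368 at 72 h. Its 3 groups did not overlap, although the lowest DMSO and the highest 6 h array were close. The decrease at 72 h was 19.0% (log2 -0.30, SE 0.034, limma adjusted p = 3.21e-05).

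MT1G was read by 2 probe sets that gave different accounts. The signal of 204745_x_at was 3995, 3677 and 3876 in DMSO, 3786, 3551 and 3492 at 6 h, and 3148, 2974 and 2955 at 72 h. The 72 h arrays were below all others, and the decrease was 21.4% (log2 -0.35, SE 0.044, limma adjusted p = 8.53e-05). The second, 210472_at, whose name does not mark shared probes, stayed below the filter on every array, at 7.77 to 8.43 in DMSO, 7.64 to 11.0 at 6 h and 8.12 to 9.26 at 72 h. Its groups overlapped, and over 9 arrays its log2 signal had Pearson r = 0.06 with that of 204745_x_at. With group means subtracted, r between the 2 was 0.80. The lowest value anywhere in the table was 4.54, so this probe set lay near the lower end and leaves little room for a decrease to be read.

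The 2 MT1E probe sets both fell, with different estimates. The signal of 216336_x_at was 6521, 5992 and 6182 in DMSO, 6253, 5822 and 5815 at 6 h, and 5217, 4838 and 4514 at 72 h, with the 72 h arrays below all others. It fell by 22.2% (log2 -0.36, SE 0.050, limma adjusted p = 2.06e-04). The signal of 212859_x_at was 6224, 5682 and 6147 in DMSO, 5682, 5628 and 5403 at 6 h, and 5531, 5495 and 5147 at 72 h. Here the 6 h and 72 h arrays overlapped, and the highest 72 h array was close to the lowest DMSO array. It fell by 10.4% (log2 -0.16, SE 0.042, limma adjusted p = 0.016). That call was lost without DMSO replicate 1 (adjusted p = 0.082), DMSO replicate 3 (0.078) or 72 h replicate 3 (0.070), with median-centred arrays (0.35), without the mean-variance trend (0.14) and without both 72 h replicates 2 and 3 (0.21), and the range over its alternatives was 0.0066 to 0.35.

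The 2 MT1F probe sets differed in whether they passed the test. The signal of 217165_x_at was 5925, 5304 and 6072 in DMSO, 5384, 5163 and 5381 at 6 h, and 4753, 4728 and 4672 at 72 h. All 72 h arrays lay below all others, and the decrease was 18.1% (log2 -0.29, SE 0.044, limma adjusted p = 4.71e-04). The signal of 213629_x_at was 1464, 1267 and 1430 in DMSO, 1276, 1267 and 1173 at 6 h, and 1184, 1267 and 1338 at 72 h. Its groups overlapped, 1 array of each group held the identical value, and the log2 difference at 72 h was -0.13 (SE 0.062, limma adjusted p = 0.16). Without DMSO replicate 2 that difference was -0.20 and was called (adjusted p = 0.046), with 0.046 to 0.50 over its alternatives.

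MT1M 217546_at was the metallothionein probe set above the filter whose name does not mark cross-hybridising probes. Its signal was 177.0, 159.5 and 155.1 in DMSO, 138.0, 154.5 and 153.4 at 6 h, and 150.3, 131.2 and 118.9 at 72 h. The 72 h arrays lay below the DMSO arrays and overlapped with those at 6 h. The log2 difference at 72 h was -0.30 (SE 0.11), of the same size as for MT1H, but the spread was wider and it was not called (limma adjusted p = 0.061). It was called with a filter at the upper quartile (adjusted p = 0.041), with 1 probe set a gene (0.046) and, at -0.39, without 72 h replicate 1 (0.0098), and over its alternatives adjusted p ran from 0.0098 to 0.55.

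**Figure D2:**
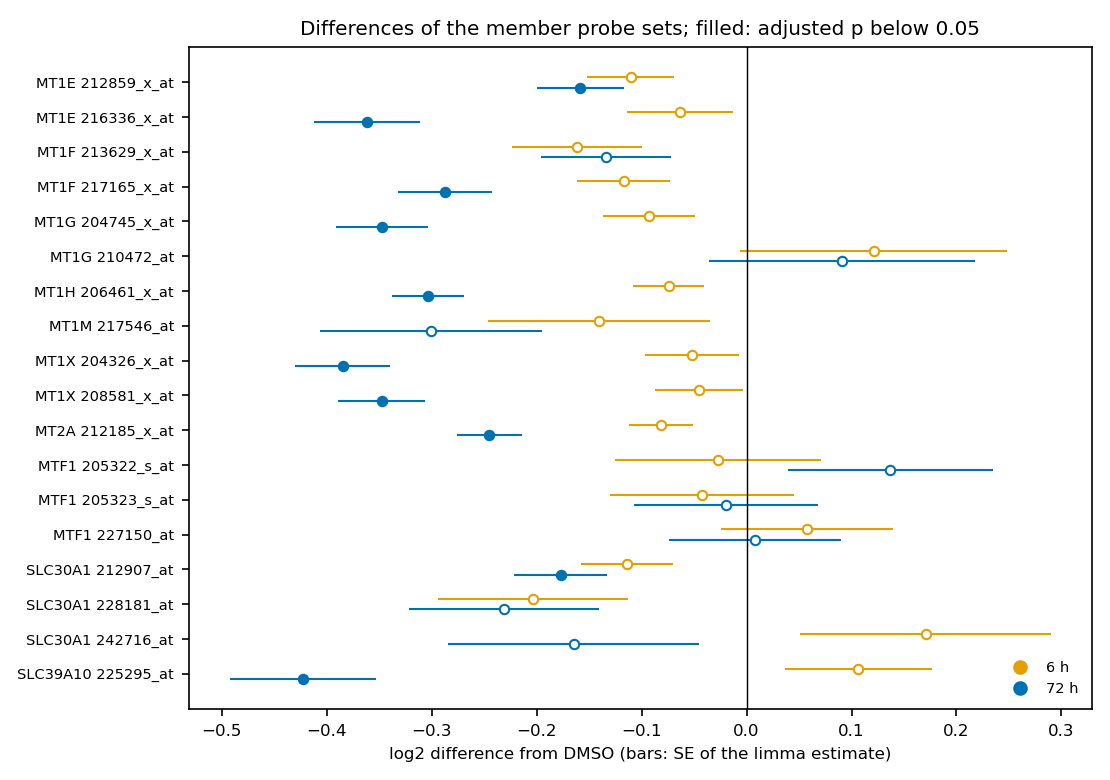
Log2 difference from DMSO at 6 h and 72 h for each of the 18 probe sets, with bars of 1 SE of the limma estimate and filled points for an adjusted p below 0.05. Filled points occur at 72 h and lie between -0.42 and -0.16, and no 6 h point is filled.

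How far the metallothionein probe sets are separate readings was then examined. Of the 11, 9 have names ending in _x_at, the platform's mark for probes that also match other transcripts, and 2 end in _at. Over the 9 arrays, the 36 pairs of _x_at probe sets had Pearson r from 0.30 to 0.98 (median 0.90). The arrays fall into 3 treatment groups, so differences between groups enter these values. After group means were subtracted, r ran from -0.12 to 0.93 (median 0.54). Pairs from 1 gene were not higher in median r than pairs from different genes: it was 0.91 for 33 pairs of different genes and 0.80 for 3 pairs of the same gene, and 0.55 and 0.51 with group means subtracted. A single principal component held 84.6% of the variance of the 9 probe sets over arrays, and the second held 10.8%. These arrays share labelling, scale and group, and no p is attached to the correlations.

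The common level on each array was read as the median of these probe sets. Relative to the DMSO mean, the median log2 signal of the 9 _x_at probe sets was 0.05, -0.06 and 0.03 on the DMSO arrays, -0.06, -0.10 and -0.10 at 6 h, and -0.28, -0.28 and -0.32 at 72 h. DMSO replicate 2 was low among the controls and overlapped with 6 h replicate 1, and all 72 h arrays were well below the rest. With 84.6% of their variance in 1 component, differences between groups included, the 9 probe sets describe mostly 1 common movement. They cannot be counted as 9 readings.

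Probe sets of 1 gene were also compared within arrays, which removes any shift common to both. All 7 pairs from 1 gene in which both passed the filter were tested on the log2 ratio of their signals. The ratio of MT1E 212859_x_at to 216336_x_at was higher at 72 h than in DMSO by 0.20, and that of MT1F 213629_x_at to 217165_x_at by 0.15, without overlap between the groups. The ratio of the MT1X probe sets changed by -0.04 with overlapping groups. For MTF1, 205322_s_at over 227150_at differed by 0.13 without overlap. Each of the 3 non-overlapping pairs had p = 0.1 in a two-sided exact permutation test (n = 3 and 3), the smallest this design allows, and adjusted p = 0.23 over the 7 pairs, so none can pass the threshold. For MT1M 217546_at, r with the 9 _x_at probe sets ran from 0.22 to 0.83 (median 0.76), and the median was 0.30 with group means subtracted.

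**Figure D3:**
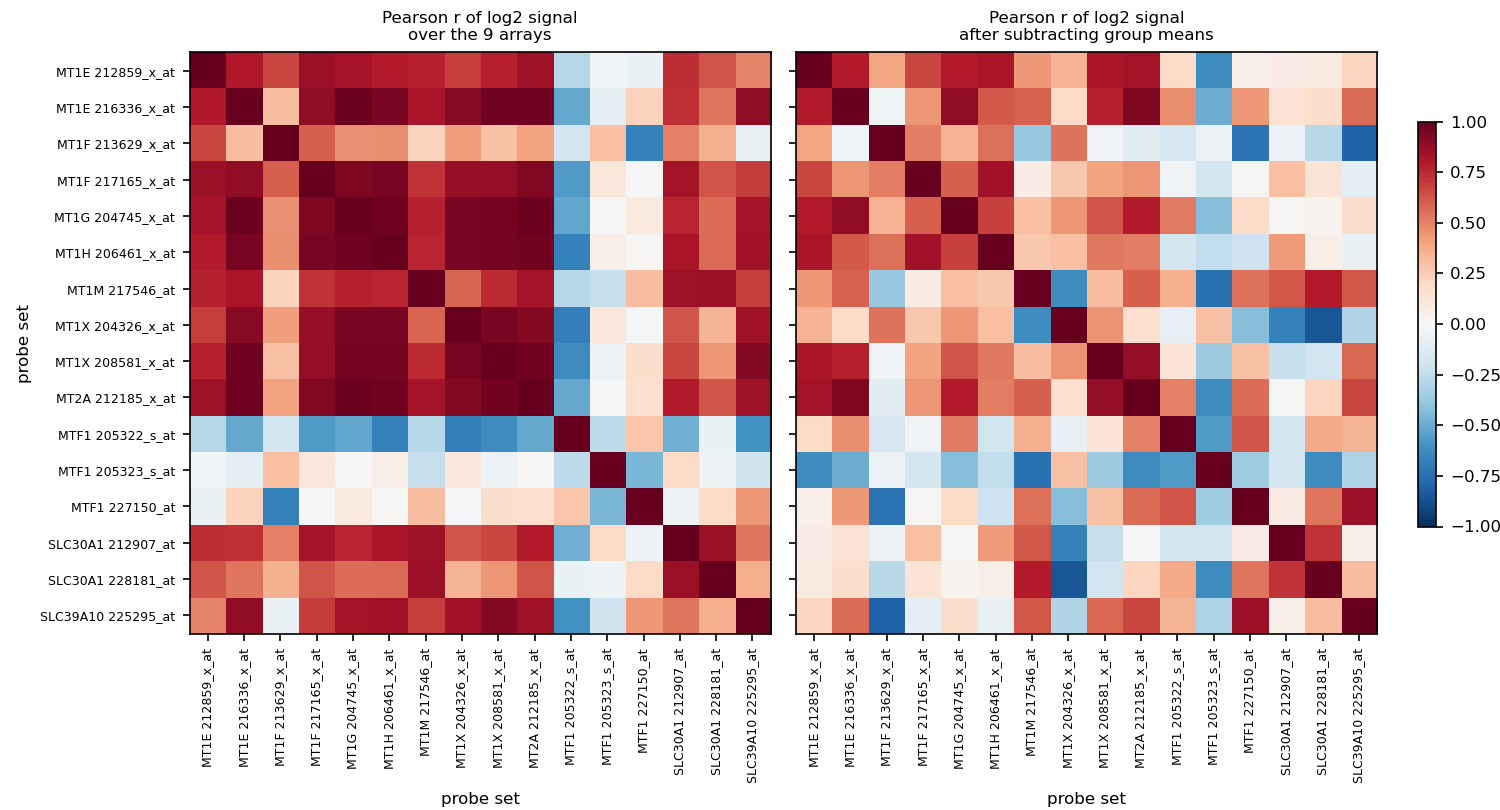
Pearson r of log2 signal between the 16 probe sets above the filter, over the 9 arrays (left) and after subtracting each group's mean (right), on a colour scale from -1 to 1. The metallothionein _x_at probe sets form a block of high r on the left, with a median of 0.90, which pales to a median of 0.54 on the right.

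MTF1, the zinc-responsive activator of these genes, showed no called difference. Its probe set 205322_s_at gave 124, 125 and 125 in DMSO, 125, 125 and 117 at 6 h, and 151, 125 and 137 at 72 h. Probe set 205323_s_at gave 131, 135 and 132, then 131, 125 and 131, then 127, 132 and 134, and 227150_at gave 215, 228 and 227, then 229, 228 and 240, then 249, 214 and 212. All 3 had overlapping DMSO and 72 h arrays. The log2 differences at 72 h were 0.14, -0.02 and 0.01 (SE 0.098, 0.088 and 0.082), with limma adjusted p of 0.38, 0.91 and 0.96. The ratio of 72 h to DMSO for 227150_at had a 95% interval of 0.890 to 1.14, so a decrease of the size of SLC39A10's (a ratio of 0.746) lies outside it for this probe set. Under quantile normalization and cyclic loess, 205322_s_at was called higher, by 0.25 in each (adjusted p = 0.033 and 0.031), and over its alternatives adjusted p ran from 0.031 to 0.60. The 3 probe sets did not follow each other over arrays, with r from -0.46 to 0.28.

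SLC30A1, the plasma membrane zinc exporter and a classical MTF1 target, was lower by its brightest probe set. The signal of 212907_at was 2123, 1977 and 1982 in DMSO, 1804, 1853 and 1962 at 6 h, and 1808, 1786 and 1782 at 72 h. Both treated groups lay below all DMSO arrays, and they overlapped with each other. At 72 h it fell by 11.6% (log2 -0.18, SE 0.044, limma adjusted p = 0.012). That call was lost without DMSO replicate 1 (adjusted p = 0.069), with median-centred arrays (0.27), without the trend (0.087) and without both 72 h replicates 2 and 3 (0.13), and the range over alternatives was 0.0069 to 0.27. The log2 difference at 6 h was -0.11 (SE 0.044) and not called.

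A second SLC30A1 probe set, 228181_at, gave 283, 259 and 265 in DMSO, 209, 243 and 251 at 6 h, and 252, 213 and 224 at 72 h. Both treated groups again lay below all DMSO arrays. Its log2 differences were -0.20 at 6 h and -0.23 at 72 h (SE 0.090 for both), and neither was called (limma adjusted p = 0.99991 and 0.090). Without 72 h replicate 1 the 72 h difference was -0.30 and called (adjusted p = 0.024), with 0.024 to 0.67 over its alternatives. These probe sets, neither of which is marked as shared, had r = 0.86 over the 9 arrays and 0.73 with group means subtracted. The third, 242716_at, stayed below the filter at 7.03 to 11.4, with overlapping groups.

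SLC39A10, a zinc importer of the plasma membrane, had the largest difference among the 18 probe sets at 72 h. Its only probe set, 225295_at, gave 604, 647 and 620 in DMSO, 669, 657 and 689 at 6 h, and 513, 470 and 417 at 72 h. The 72 h arrays lay below all others, and the 6 h arrays lay above all DMSO arrays. It fell by 25.4% at 72 h (log2 -0.42, SE 0.070, limma adjusted p = 7.77e-04). This call held under each of the 21 alternatives tried. At 6 h the log2 difference was 0.11 (SE 0.070) and not called (adjusted p = 0.99991).

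After 6 h, 0 of the 16 tested probe sets were called by limma, with an unadjusted p below 0.05 for 7. Over all tested probe sets 0.194% were called at 6 h. All 10 metallothionein differences at 6 h were negative, from -0.16 to -0.05 with a median of -0.09, beside a median of 0.00 over all tested probe sets. They are not 10 separate readings, for the reason given above. The 6 h and DMSO arrays did not overlap for 6 of the 16, of which 5 were lower, beside 10.9% of all tested probe sets. The 5 were MT2A, MT1H, MT1M and both SLC30A1 probe sets, and SLC39A10 was the one that was higher. DMSO is shared by the 6 h and 72 h comparisons, so a high DMSO array enters both.

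The log2 difference of 72 h from 6 h does not use the DMSO signal, and it holds time in culture as well as exposure. DMSO arrays still enter the filter and the spread that limma estimates, and so the p-values. Of the 16 tested probe sets, 13 had negative differences, beside 64.7% of all tested probe sets. Between these times 8 of the 16 were called lower and 0 higher, beside 13.0% and 4.49% over all tested probe sets. The 8 were SLC39A10 and 7 of the 10 metallothionein probe sets. The median log2 difference of the 16 was -0.16, beside -0.07 over all, and the groups did not overlap for 8, beside 29.0% of all. SLC39A10 showed the largest, at -0.53 (SE 0.070, limma adjusted p = 1.84e-04), and MT1X 204326_x_at followed at -0.33 (SE 0.045, adjusted p = 2.34e-04). Neither tested SLC30A1 probe set was called between the times, with log2 differences of -0.06 and -0.03. With arrays centred on the median, 4 of the 16 were called lower, and likewise 4 without both 72 h replicates 2 and 3.

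Called genes among the other zinc transporters went in both directions, each read by its brightest probe set. Over all tested probe sets, 5.57% were called higher at 72 h and 14.2% lower. The counts below are small, lie near these shares and are no result about zinc transporters. Of 9 other SLC30 genes, which move zinc out of the cytosol into organelles or out of the cell, 6 passed the filter. Of these, SLC30A9, a mitochondrial zinc exporter, rose at 72 h from a mean of 450 to 559 (log2 0.31, SE 0.060, limma adjusted p = 0.0022), while its other probe set was not called. The median of the 6 was 0.13. SLC30A5, which loads zinc into the secretory pathway, was not called by its brightest probe set (log2 0.04), while another, 1555334_s_at, fell by 0.32 (SE 0.091, limma adjusted p = 0.024). Its probe sets 232432_s_at, 220181_x_at and 243166_at differed by -0.02, 0.06 and -0.05 and were not called. Of 13 other SLC39 genes, which bring zinc into the cytosol, 10 passed and 2 were called lower, with a median of -0.09. SLC39A7, which releases zinc from the endoplasmic reticulum, fell from 347 to 293 (log2 -0.24, SE 0.064, adjusted p = 0.017). SLC39A6, the closest relative of SLC39A10 in the family, fell from 2514 to 2306 (log2 -0.12, SE 0.038, adjusted p = 0.033). Another SLC39A6 probe set, 1555460_a_at, fell by 0.55 (SE 0.14, limma adjusted p = 0.014). Its probe sets 202089_s_at and 1556551_s_at differed by -0.15 and -0.05 and were not called (adjusted p = 0.097 and 0.89).

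Both SLC39 calls by the brightest probe sets depended on single arrays, and alternatives were not read for the other probe sets. SLC39A6 lost its call under 11 of 21 alternatives (adjusted p 0.019 to 0.48), among them the omission of any 1 DMSO array or of 72 h replicate 2 or 3. SLC39A7 lost it under 5 of 21 (adjusted p 0.0066 to 0.16), among them the omission of DMSO replicate 2, DMSO replicate 3 or 72 h replicate 2. SLC30A9 kept its call under all 21.

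**Figure D4:**
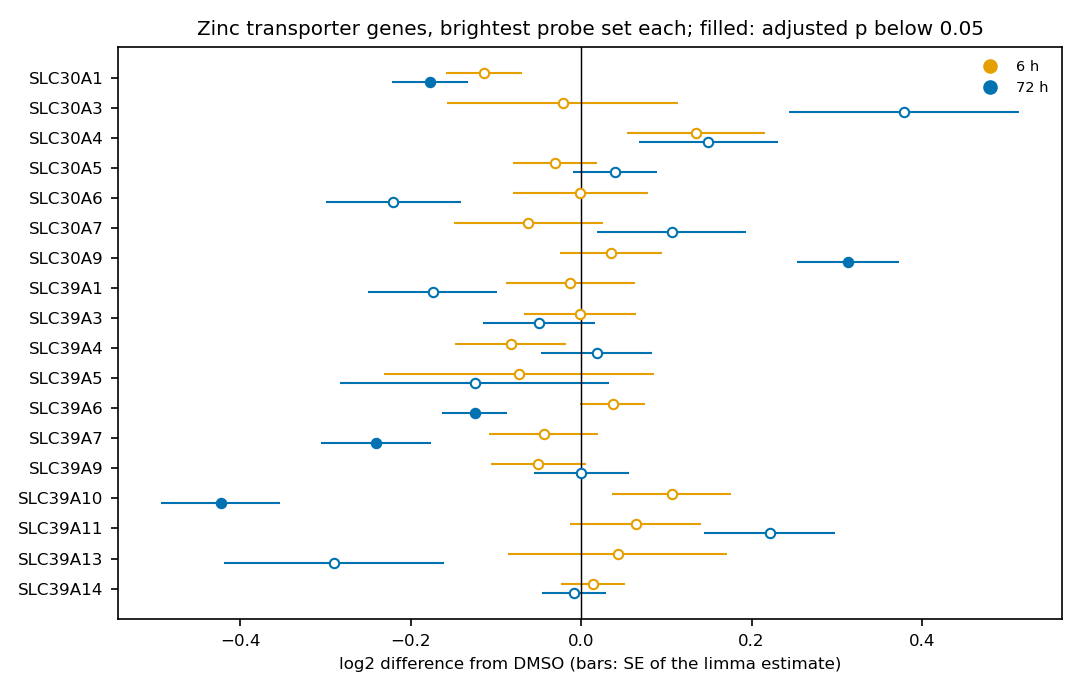
Log2 difference from DMSO at 6 h and 72 h for SLC30 and SLC39 genes above the filter, each by its brightest probe set, with bars of 1 SE of the limma estimate and filled points for an adjusted p below 0.05. SLC39A10 has the lowest 72 h value at -0.42 and SLC30A9 is filled on the higher side at 0.31.

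Among other metallothionein genes, 3 of 10 listed were measured. MT1HL1, a copy of MT1H on another chromosome, fell by 0.29 on the log2 scale (SE 0.036, limma adjusted p = 7.69e-05), again by an _x_at probe set. MT3, known for its role in brain, and MT4, known from squamous epithelium, had differences of 0.27 and 0.25 and were not called (adjusted p = 0.36 and 0.49). Their probe sets are dim and not marked as shared.

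Of 10 genes of copper handling that passed, 1 was called higher and 2 lower at 72 h, with a median of -0.08. These counts lie near the 5.57% higher and 14.2% lower over all tested probe sets, whose median was -0.07, and are no result about copper genes. SLC31A1, the copper importer, rose by 0.28 on the log2 scale, whereas SLC31A2 fell by 0.47 and the copper chaperone ATOX1 by 0.17 (limma adjusted p = 0.039, 0.037 and 0.0087). The SLC31A1 call was lost under 12 of 21 alternatives, among them the omission of DMSO replicate 1 or 3, 6 h replicate 3, or 72 h replicate 1 or 2. The SLC31A2 call was lost under 14 of 20, among them the omission of replicate 2 or 3 of any group. The ATOX1 call was lost under 3 of 21. Another SLC31A1 probe set differed by 0.14 and was not called (adjusted p = 0.32). Genes known to respond to heavy metals and oxidants were also called in both directions: of 8 that passed, 3 rose and 2 fell, with a median of 0.00. Beside them stand the same 5.57% higher and 14.2% lower over all tested probe sets. The cystine transporter SLC7A11 rose by 1.32 (SE 0.091, limma adjusted p = 3.90e-07), thioredoxin reductase TXNRD1 by 0.37 and the glutathione synthesis enzyme GCLC by 0.29. SLC7A11 209921_at also rose, by 1.14 (limma adjusted p = 1.04e-07). The dim SLC7A11 207528_s_at differed by 0.25 and was not called (limma adjusted p = 0.35). Another GCLC probe set above the filter differed by 0.21 and was not called (limma adjusted p = 0.056), and no other TXNRD1 probe set passed the filter. The heat shock co-chaperone DNAJB1 fell by 0.39 (SE 0.051, limma adjusted p = 1.22e-04).

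Glucocorticoids are a second textbook inducer of metallothioneins, so genes of that response were also read. Of 7 that passed, 1 was called higher and 3 lower at 72 h, with a median of -0.31. Over all tested probe sets, 5.57% were called higher and 14.2% lower, with a median of -0.07. The list was not tested as a set. SGK1, a kinase gene induced by glucocorticoids, fell from a mean of 551 to 140 (log2 -2.01, SE 0.12, limma adjusted p = 1.18e-07). The transcription factor gene CEBPD fell by 0.60 and NR3C1, the glucocorticoid receptor gene, by 0.31, whereas TSC22D3, another target, rose by 0.50 (adjusted p = 0.0077, 3.94e-04 and 0.0035). Other NR3C1 probe sets, 201866_s_at and 211671_s_at, fell by 0.55 and 0.27 (limma adjusted p = 0.0078 and 8.17e-04). A further one, 216321_s_at, differed by -0.11 and was not called (adjusted p = 0.41). FKBP5 was not called by its brightest probe set (log2 0.07) or by 224856_at (-0.10), while the dim 204560_at fell by 0.54 (limma adjusted p = 0.045). Another TSC22D3 probe set, an _x_at one, differed by 0.11 and was not called (limma adjusted p = 0.82), and no other CEBPD probe set passed the filter. The CEBPD call was lost without DMSO replicate 3 and without both 72 h replicates 2 and 3. At 6 h limma called 0 of the 44 genes of these lists by their brightest probe set, and 5 had an unadjusted p below 0.05. Of 35 other probe sets of these genes above the filter, 1 was called at 6 h: SLC7A11 209921_at rose from a mean of 239 to 308 (log2 0.37, SE 0.068, limma adjusted p = 0.049), and its brightest probe set differed by 0.38 (adjusted p = 0.21). TSC22D3 had a log2 difference of 0.51 at 6 h (SE 0.10, limma adjusted p = 0.088), beside 0.50 at 72 h. It was called at 6 h under quantile normalization (adjusted p = 0.029), cyclic loess (0.023), the upper-quartile filter (0.046), 1 probe set a gene (0.042) and array weights (0.0030), and over its alternatives adjusted p ran from 0.0030 to 0.70.

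The genes whose log2 signal was most like that of MT2A over the 9 arrays, among 12668 genes ranked by Pearson r, were ZNF697 (0.990), SF3A3 (0.988), ETS2 (0.986), LRRC8C (0.985) and JADE2 (0.983). Those most like SLC30A1 212907_at were RELL1 (0.948), SPNS1 (0.938), C5 (0.929), RAPGEF6 (0.928) and CDK17 (0.926). With 9 arrays in 3 groups, such values describe a common order of the arrays and carry no p.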

How the data were processed

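Total RNA of PANC-1 cells was labelled and hybridised to 9 arrays, 3 per group. Values deposited by the authors are linear intensity of 54675 probe sets. The submitters' processing notes name MAS5, with version and scaling not given in the sources used here. Ties between arrays occurred in 59.2% of probe sets, which is unusual for MAS5, so the summary method is uncertain and ties can make a spread too small. Deposited values were log2 transformed without further normalization. Probe sets with a mean below 17.8 (log2 4.15, the median of all that are not controls) were left out, which kept 27307. Models were fitted with limma 3.58.1 in R 4.3.3 (lmFit, eBayes with a mean-variance trend) on all 9 arrays, with 6 residual degrees of freedom and Benjamini-Hochberg adjustment over the 27307. The number of arrays limits the precision.

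Symbols came from the platform's probe table, and coordinates and promoter windows from RefSeq. The genes and lists were chosen with earlier results of these data known. All probe sets of the 10 genes were named, and up to 4 called genes per list with the largest 72 h difference. SLC30A5 and FKBP5 were named for a call by a probe set other than the brightest. Same-gene ratios were added after seeing the data. Alternatives covered scaling, filter, offset, trend, arrays, replicate block and omitted arrays. Array weights and the omission of both 72 h replicates 2 and 3 were added after seeing the data. Replicate numbers did not pair the arrays.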

Additional observations from a re-analysis of the deposited data

Results flagged for a closer look

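Arrays at 72 h were compared directly with those at 6 h by limma. This difference holds time in culture as well as exposure to BRD7552. Over all tested probe sets, 13.0% were called lower and 4.49% higher. Of the 16 tested probe sets of the 10 genes, 8 were past the threshold, all lower at 72 h. They were SLC39A10 225295_at (log2 -0.53), MT1X 204326_x_at (-0.33), MT1X 208581_x_at (-0.30), MT1E 216336_x_at (-0.30), MT1G 204745_x_at (-0.25), MT1H 206461_x_at (-0.23), MT1F 217165_x_at (-0.17) and MT2A 212185_x_at (-0.16). With arrays centred on the median, 4 of the 16 were called lower. The 7 metallothionein probe sets are all marked as shared. Among all 36 pairs of metallothionein _x_at probe sets, median r over arrays was 0.90, differences between groups included. With group means subtracted it was 0.54. SLC39A10 is a single probe set not marked as shared. Its 6 h difference from DMSO was 0.11 and its 72 h difference -0.42.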

How the results depend on the processing

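Over all tested probe sets, 53 were called at 6 h, 5410 at 72 h and 4766 between the times. The 6 h count was 83 with quantile normalization, 83 with cyclic loess, 25 with median-centred arrays, 12 without the trend and 191 with array weights, and 32 to 66 with 1 array left out, with 35, 32 and 35 on omitting DMSO replicate 1, DMSO replicate 3 or 6 h replicate 2. The 72 h count was 3272 with median-centred arrays, 3378 with 1 probe set a gene, 3361 without both 72 h replicates 2 and 3, and 3275 to 7686 with 1 array left out, with 3486 without DMSO replicate 1 and 3275 without DMSO replicate 3. Between the times it was 2754, 3037 and 2482 under the same 3 settings, and 3088 (6 h replicate 2) to 7370 (72 h replicate 1) with 1 array left out. For the 10 genes, 0 probe sets were called at 6 h under every setting, 7 to 12 at 72 h (10 as reported) and 4 to 9 between the times (8 as reported), where 9 came from quantile normalization and from cyclic loess, 4 came from median-centred arrays and 4 came from the omission of both 72 h replicates 2 and 3. The cause was not tested. SLC39A10, MT1X, MT1G, MT1H, MT1F 217165_x_at and MT1E 216336_x_at kept their 72 h calls under every alternative in which they were fitted. Between the times, calls were lost for MT1F 217165_x_at under 7 alternatives, among them the omission of 6 h replicate 1, 6 h replicate 3 or 72 h replicate 3, for MT2A under 3, MT1G under 2, and MT1E 216336_x_at and MT1H under 1 each. No called difference of the 10 genes changed sign. With the replicate block, 46, 4774 and 4199 probe sets were called in the 3 comparisons, and 0, 10 and 8 of the 10 genes; correlations of same-numbered arrays ran from -0.26 to 0.20, with 4 of 9 above 0.1, so the numbers are not taken as pairs. Low signal limits what can be read from the 2 probe sets below the filter.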
